A study of Mus musculus with 66 samples.

Results

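The microglia marker genes C1qa, C1qb, C1qc, Cx3cr1, P2ry12, Tmem119, Csf1r, Aif1 and Trem2 were followed in the nucleus accumbens (NAcc) of mice over a daily cycle, with and without cocaine. They were chosen by gene symbol, and each of the 9 symbols had exactly 1 row among the 24138 genes of the deposited table. Levels are FPKM, sequenced fragments divided by transcript length and by the number of mapped fragments of the library, which allows levels of different genes to be set side by side. The 66 libraries came from punches of ventral striatum of male C57BL/6 mice aged 3 to 5 months, 3 libraries in each of 22 groups. The 11 wild-type (WT) groups and the 11 iMSN-D2RKO groups were, for each genotype, a ZT3 group (zeitgeber time, hours after lights on) and saline and cocaine groups at ZT7, ZT11, ZT15, ZT19 and ZT23. Cocaine (20 mg/kg) or saline was given intraperitoneally at ZT3, and the ZT3 libraries serve both treatments. In iMSN-D2RKO mice both alleles of the dopamine D2 receptor gene are floxed and CRE is driven by the D1R promoter, which removes the receptor from indirect pathway medium spiny neurons (iMSNs) because their embryonic precursors express both receptors. The deletion is thus neuronal by design, and neither genotype carries a transgene aimed at microglia. The sources do not say whether a library held 1 mouse or a pool, so p-values measure the spread between libraries.

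Microglia are the resident macrophages of the brain. They depend on the growth factor receptor CSF1R for survival, sense neurons through the fractalkine receptor CX3CR1 and extracellular nucleotides through P2RY12, and prune and clear material tagged by complement component C1q, most of which they make themselves in the brain. TREM2 is a lipid-sensing receptor that signals through TYROBP, AIF1 (also called IBA1) is an actin-binding protein used to stain these cells, and TMEM119 is a membrane protein that separates microglia from most other macrophages. A fall of P2RY12, TMEM119 and CX3CR1 with a rise of TREM2 and other genes is a known picture of microglial activation. In tissue punches, fewer microglia and less RNA per microglial cell cannot be told apart.

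The 3 C1q genes lie side by side on the minus strand of chromosome 4 (GRCm38, the mm10 build of the files, GENCODE M21 positions), C1qb at 136880129 to 136886187, C1qc at 136889804 to 136893065 and C1qa at 136895917 to 136898803. P2ry12 (chromosome 3, 59216272 to 59262871, minus strand) lies wholly within Med12l, a gene on the opposite strand. Whether strand was used in counting is not given in the sources used here, so reads of the pair may not be fully separated. Trem2 (48346401 to 48354147, plus strand) and Aif1 (35170991 to 35176068, minus strand) are both on chromosome 17, Tmem119 (113793729 to 113800516, minus strand) is on chromosome 5, and Cx3cr1 (119901616 to 120069879, minus strand) is on chromosome 9. The annotated span of Cx3cr1 overlaps 9 other genes, 5 of them protein coding.

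The promoter windows of C1qb and C1qc, the neighbours whose levels moved together most closely by rank, and of P2ry12, which moved against them in some libraries, are printed for comparison. Each window is RefSeq sequence (GRCm38.p6) from 250 bases before to 50 bases after the gene start, on the gene's own strand. Capitals mark GAGGAA or its reverse complement TTCCTC, the core letters of a site for PU.1, a transcription factor of the myeloid lineage. The windows are chr4:136886151-136886450 for C1qb, chr4:136892865-136893164 for C1qc and chr3:59262936-59263235 for P2ry12, all on the minus strand.
C1qb: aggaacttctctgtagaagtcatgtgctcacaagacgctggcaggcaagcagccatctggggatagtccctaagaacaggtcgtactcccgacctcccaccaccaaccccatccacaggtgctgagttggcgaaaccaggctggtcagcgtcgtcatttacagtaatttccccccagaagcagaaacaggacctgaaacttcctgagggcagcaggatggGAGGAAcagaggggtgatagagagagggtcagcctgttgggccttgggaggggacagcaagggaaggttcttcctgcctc
C1qc: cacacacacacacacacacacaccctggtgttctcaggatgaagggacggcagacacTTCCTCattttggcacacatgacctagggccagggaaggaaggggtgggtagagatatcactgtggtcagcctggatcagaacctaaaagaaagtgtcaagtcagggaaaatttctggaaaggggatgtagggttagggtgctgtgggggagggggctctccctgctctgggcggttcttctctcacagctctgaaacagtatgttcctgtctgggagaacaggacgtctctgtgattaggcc
P2ry12: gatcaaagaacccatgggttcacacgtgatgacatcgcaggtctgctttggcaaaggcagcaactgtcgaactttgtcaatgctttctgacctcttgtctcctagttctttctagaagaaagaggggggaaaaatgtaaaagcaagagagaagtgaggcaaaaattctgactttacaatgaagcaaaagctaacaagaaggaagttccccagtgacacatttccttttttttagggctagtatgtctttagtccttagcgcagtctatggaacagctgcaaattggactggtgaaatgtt
C1qb held a match 30 bases before its start and C1qc a match 193 bases before it, and no match was found in the P2ry12 window. Of the 6 members whose windows were searched, Trem2 (40 bases before) and Aif1 (7 bases before) also held 1 match each, and Cx3cr1 held none. The remaining members were not searched and are not part of these counts. Among all 32851 windows of this length 28.3% held the letters on either strand. The E-box letters CACGTG, which read the same on both strands and are bound by clock activators, occurred in 7.15% of all windows and among the 6 members once, in P2ry12, 228 bases before the start. These matches describe letters in a window and no binding was measured.

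Averaged over the 66 libraries the C1q chains were the most abundant members, an order that did not hold in the 13 libraries described further on as set apart. C1qc averaged 58.9 FPKM ± 16.3 (SD, n = 66), C1qa 58.1 ± 18.4 and C1qb 57.3 ± 15.6. Csf1r followed at 29.9 ± 4.71, P2ry12 at 23.7 ± 10.6, Trem2 at 15.5 ± 4.49, Cx3cr1 at 14.97 ± 2.56 and Tmem119 at 12.5 ± 3.30, and Aif1 was lowest at 7.13 ± 2.56. All 9 were thus readily detected in every library, the lowest single value being 3.55 FPKM for Aif1. The order of the C1q chains was not fixed, since C1qa exceeded C1qb in 34 of 66 libraries, and Trem2 exceeded Cx3cr1 in 32 of 66. C1qb exceeded Csf1r in all 66 libraries. As a check of the tissue, the neuronal marker Snap25 averaged 893 FPKM and Ppp1r1b, the DARPP-32 gene of medium spiny neurons, 1148. Markers of other macrophages were low, with Mrc1 at 0.35 FPKM, Lyve1 at 0.122 and the monocyte receptor Ccr2 at 0.0439 on average, while Cd163 of border macrophages reached 1.12 and Stab1 2.24. Of 24 genes linked to microglial activation 19 averaged under 1 FPKM, and Cst7 (0.087 FPKM), Clec7a (0.103), Il1b (0.0599) and Tnf (0.0237) stayed under 0.5 FPKM in every library. The other 5 were Lpl at 18.5 FPKM, Axl at 9.77, Spp1 at 7.94, Ptgs1 at 4.11 and Ptgs2 at 1.2, genes that are not limited to microglia.

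Drd2, the targeted gene, ranged from 99.1 to 304 FPKM (median 129) in WT and from 78.0 to 375 (median 112) in iMSN-D2RKO libraries, so the genotypes overlapped. In the 13 libraries described further on as set apart Drd2 was 171 to 350 FPKM, against 78.0 to 375 with a median of 118 in the other 53. The Drd2 value sums the whole gene, including exons outside the floxed part, and does not check the labels. The table holds no read counts, so the depth of a library is unknown, and no counting interval is given. Libraries held 12496 to 13028 genes at 1 FPKM or more. Summed FPKM ranged from 364078 to 690048, and the highest total belonged to iMSN-D2RKO ZT7 saline replicate 1. That library also held the highest value of 6 members, including C1qa at 175 FPKM against 93.3 in the next library, Trem2 at 41.4 against 23.9 and Aif1 at 20.6 against 15.9. The other 3 did not share this, with Csf1r at 22.3 FPKM and Tmem119 at 10.6, both under their mean over all libraries, and P2ry12 at 23.3. It was likewise highest for the summed markers of neurons, at 15946 FPKM against a median of 5242, and of endothelial cells, at 328 against 219, so its high values were not limited to microglia genes. The ligand, complement and activation genes and the 1 blood cell gene were also highest there. Its rank was 2 for astrocyte, 4 for the 23 other microglia, 7 for oligodendrocyte and 58 for the 2 border macrophage genes. Such sums give most weight to the most abundant genes.

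**Figure D1:**
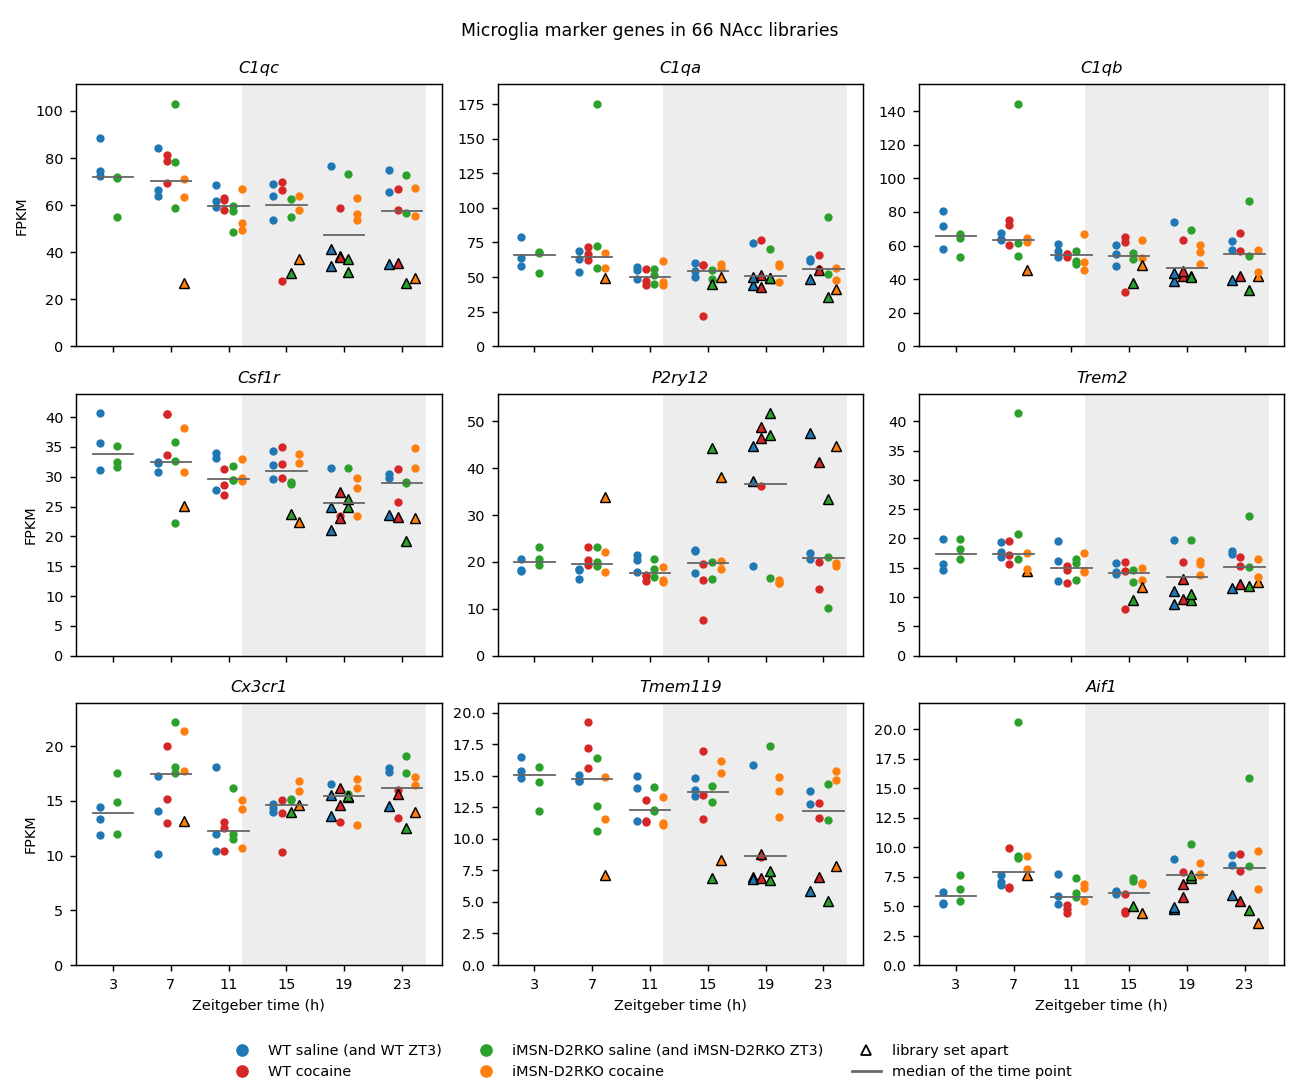
FPKM of the 9 microglia marker genes (one panel each, ordered by mean level) against zeitgeber time in h, each point a library coloured by genotype and treatment and shifted sideways for legibility, with grey lines at the median of the time point, grey background for the dark phase and triangles for the 13 libraries set apart. P2ry12 separates into a band near 20 FPKM and a band of 33.4 to 51.8 FPKM, and the triangles lie low for Tmem119 and C1qc.

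A set of libraries stood apart from the rest of their groups. On the main axis of within-group variation over 9575 genes, computed without the members and holding 43.5% of that variation, 13 libraries scored 44.2 to 56.1 and the other 53 scored -35.8 to 15.1. The 13 were 6 WT and 7 iMSN-D2RKO libraries, 7 after saline and 6 after cocaine, and 12 of them were taken at ZT15, ZT19 or ZT23. Only 1 of the 30 libraries of ZT3, ZT7 and ZT11 was among them. The labels give no batch that matches this split.

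The markers did not move as a unit in these libraries. P2ry12 was 33.4, 44.8 and 51.8 FPKM (lowest, median and highest) in the 13 libraries and 7.51, 19.1 and 36.1 in the other 53. A single library of the 53, WT ZT19 cocaine replicate 2 at 36.1 FPKM, reached into the range of the 13, and the next highest held 23.3. Tmem119 went the other way, at 5.06, 6.99 and 8.75 FPKM against 8.58, 14.0 and 19.2, and C1qc was 26.9, 35.1 and 41.3 FPKM against 27.6, 63.7 and 103. For each of Tmem119 and C1qc 1 of the 53 other libraries lay within the range of the 13, at 8.58 and 27.6 FPKM, and the remaining ones lay above it. The order of the members differed with them, since C1qc exceeded C1qa in 49 of the 53 libraries and in 0 of the 13, and Csf1r exceeded P2ry12 in 51 of the 53 and in 0 of the 13. In the 13 the P2ry12 median was above those of C1qb (41.97 FPKM) and C1qc.

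Within the 10 groups that held both kinds of library, the difference (set apart minus others, log2(FPKM + 1), mean ± SD over groups) was 1.06 ± 0.31 for P2ry12, higher in all 10 groups. It was -0.96 ± 0.22 for C1qc, -0.87 ± 0.31 for Tmem119, -0.59 ± 0.30 for Aif1, -0.57 ± 0.23 for C1qb, -0.49 ± 0.27 for Trem2 and -0.43 ± 0.27 for C1qa, each lower in all 10 groups. Csf1r (-0.36 ± 0.19) was lower in 9 groups and Cx3cr1 (-0.17 ± 0.24) in 8. Over the 12945 genes with a mean of 1 FPKM or more the median difference was 0.07, and P2ry12 lay at the 97.6th percentile, Tmem119 at the 5.82nd and C1qc at the 4.4th. These values are a description, since the libraries were set apart by their own expression.

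**Figure D2:**
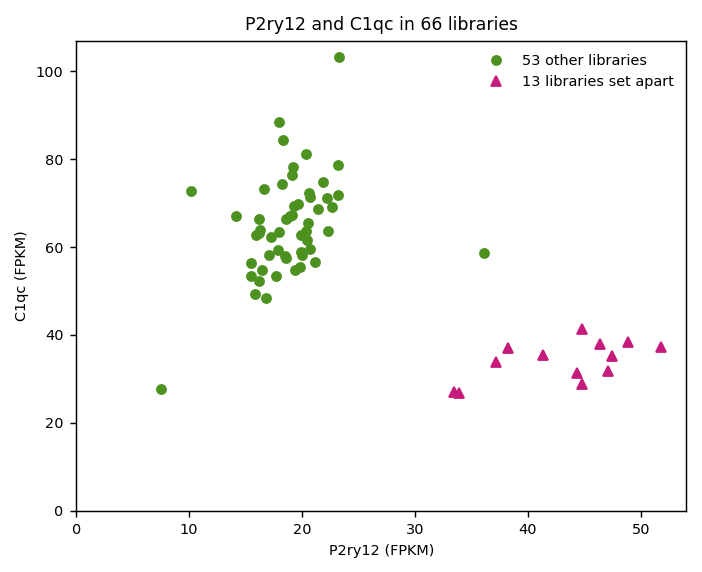
C1qc against P2ry12 (both FPKM, linear axes), each point a library, circles for the 53 other libraries and triangles for the 13 libraries set apart. The 13 triangles lie at 33.4 to 51.8 FPKM of P2ry12 and at or below 41.3 FPKM of C1qc.

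Base composition differed between these genes in the same sense. The longest coding transcript of P2ry12 has 38.6% G and C over 2344 bases, against 57.5% for C1qc over 1203 bases and 59.1% for Tmem119 over 2242 bases. Across 11828 genes with a transcript, the quintile with the lowest GC content, which holds P2ry12, had a median difference of 0.60 between the same libraries, and the quintile with the highest, which holds C1qa, C1qb, C1qc, Tmem119 and Trem2, had -0.39. Spearman's rho across genes, which are not independent replicates, was -0.66 with GC content and 0.42 with transcript length. P2ry12 exceeded the median of its own quintile. The other microglia genes of that quintile with a mean of 1 FPKM or more were also higher. Hpgds (42.1% GC) differed by 0.60 ± 0.19 and Cd33 (41.3% GC) by 0.37 ± 0.29. Gpr34 (37.1% GC) differed by 0.32 ± 0.25 and Cd53 (39.95% GC) by 0.20 ± 0.12. P2ry13 (44.7% GC, another nucleotide receptor), in the next quintile, differed by 0.23 ± 0.23. Over 32 microglia genes Spearman's rho with GC content was -0.61, and some genes departed from it. Selplg (58.6% GC) was higher by 0.60 ± 0.22 in all 10 groups, and Fcrls (48.5% GC) was lower, at -0.61 ± 0.25, in all 10. Med12l, the gene that surrounds P2ry12, was higher by 0.67 ± 0.20 in all 10 groups. The part of base composition, or of reads shared with Med12l, in the P2ry12 values was not tested.

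**Figure D3:**
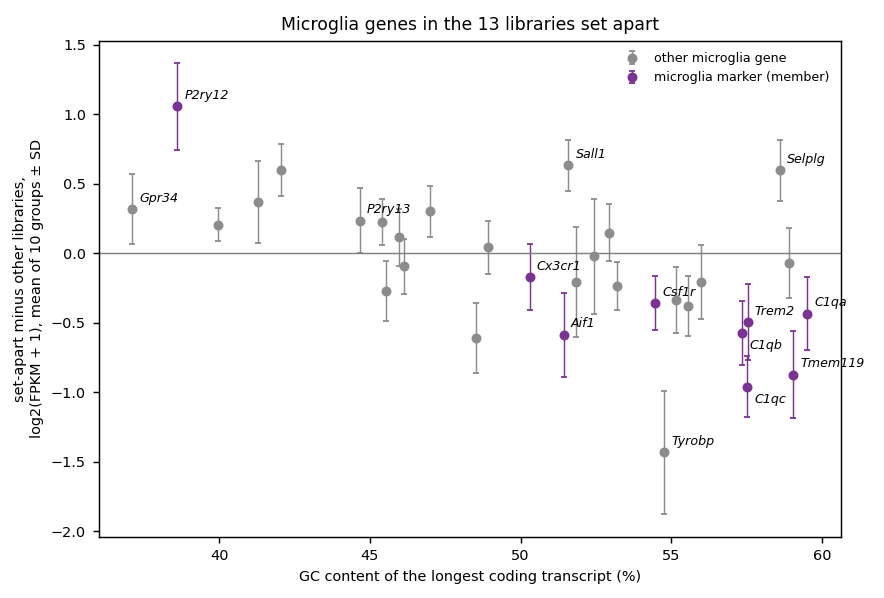
Difference between the 13 libraries set apart and the others (log2(FPKM + 1), mean of 10 groups, bars are the SD over groups) against the GC content of the longest coding transcript in percent, for the 9 members and 23 other microglia genes. P2ry12 lies highest at 38.6% GC, and the C1q chains, Tmem119 and Trem2 lie below 0 at 57.4% to 59.5% GC. Selplg, within that GC range at 58.6%, lies above 0 at 0.60.

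Other microglia genes did not share a direction in these libraries either. Of 32 microglia genes with a mean of 1 FPKM or more, members included, 13 were higher and 19 were lower. Over all 12945 genes at that level 7086 were higher and 5845 lower. The 9 members were split 1 higher to 8 lower. The 23 other microglia genes were split 12 to 11, with a median difference of 0.04 against 0.07 for all genes. Tyrobp, the signalling partner of TREM2 with the shortest transcript of the list at 597 bases, differed by -1.43, more than Trem2 itself. Selplg (0.60) and Sall1 (0.63), a transcription factor of microglial identity, were higher in all 10 groups.

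In the libraries not set apart, the C1q chains and Trem2 rose and fell together. Deviations from the group mean were compared in the 50 such libraries of groups with at least 2 of them, for all 36 pairs of members, with permutation within groups (100000 draws, two-sided). For the 6 pairs among C1qa, C1qb, C1qc and Trem2, Pearson's r was 0.85 to 0.95 and Spearman's rho 0.83 to 0.92, each permutation p being 1e-05, the smallest the draws can give, and the adjusted p 6e-05 for each (Benjamini-Hochberg over 36 pairs). Leaving out the 2 libraries farthest from the median of 1 gene of the pair kept r at 0.82 to 0.92. That gene was the one that comes first in the opening list of members, here and for the other pairs. Extreme libraries of the second gene were not removed. The shared variation was thus present within groups of the same genotype, treatment and time.

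The remaining markers formed looser ties. Aif1 varied with C1qb (r = 0.75, rho = 0.61), Trem2 (r = 0.73, rho = 0.62), C1qa (r = 0.72, rho = 0.63) and C1qc (r = 0.51, rho = 0.50), with adjusted permutation p by r of 0.00184, 0.00327, 0.00036 and 0.0213 and r of 0.55 to 0.68 after leaving out the 2 farthest libraries. Csf1r and Tmem119 varied together (r = 0.70, rho = 0.64, adjusted permutation p = 0.00045 and 0.00068), and so did Cx3cr1 and Aif1 (r = 0.57, rho = 0.68, adjusted permutation p = 0.00048 and 0.000411), with r of 0.66 and 0.56 after leaving out the 2 farthest libraries. P2ry12 was tied to no other member by Pearson's r (adjusted permutation p from 0.20 to 0.95 over 8 pairs), and by rank only to C1qc (rho = 0.46, adjusted permutation p = 0.0366). Over all 36 pairs 12 passed by r, all positive, and 18 by rho, the further ones by rho being those of Tmem119 with the C1q chains, Trem2 and Aif1 and that of P2ry12 with C1qc. The share of passing pairs among other genes was not computed, so these counts cannot be read as particular to microglia markers. The 13 libraries set apart left only 3 free deviations within groups and were not correlated.

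**Figure D4:**
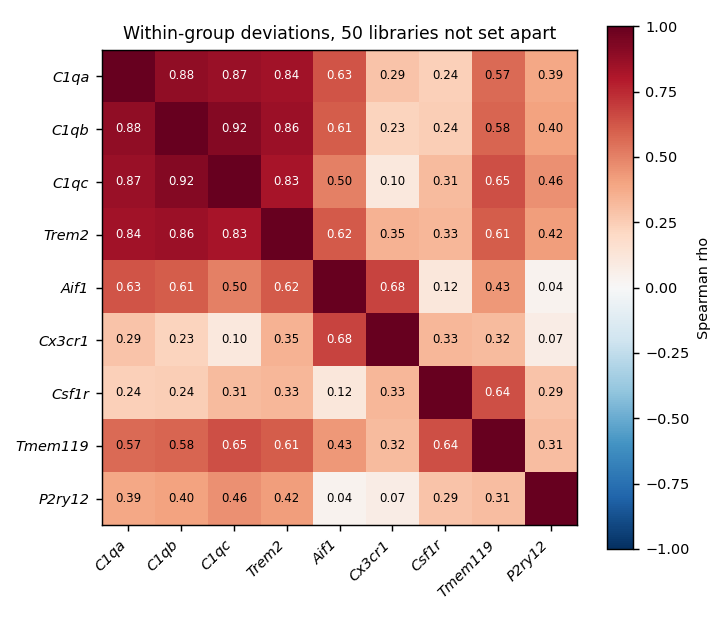
Spearman's rho between within-group deviations of log2(FPKM + 1) for each pair of members in 50 libraries not set apart (colour scale from -1 to 1). The block of C1qa, C1qb, C1qc and Trem2 runs from 0.83 to 0.92, and P2ry12 stays at or below 0.46 with every other member.

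The first question of the design was whether cocaine changed the markers. In WT mice no member passed, and neither did any of the 14392 genes tested (0% called, limma, adjusted p under 0.05), with 365 genes and no member at an unadjusted p under 0.05. C1qa ranged from 44.02 to 74.6 FPKM (median 55.2) over the 15 WT saline libraries of ZT7 to ZT23 and from 21.9 to 77.1 (median 56.1) over the 15 WT cocaine libraries. Cx3cr1 ranged from 10.1 to 18.1 FPKM (median 14.5) after saline and from 10.3 to 20.0 (median 13.9) after cocaine. The C1qa range after saline lay within that after cocaine, and the Cx3cr1 ranges overlapped from 10.3 to 18.1 FPKM.

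Adjusting for time point, the WT difference (cocaine minus saline, log2(FPKM + 1)) ran from -0.10 ± 0.10 (SE) for Trem2 to 0.01 ± 0.06 for Csf1r, with a median of -0.06 over the 9 members against 0.00 over all genes. The 95% interval was narrowest for Csf1r, from -0.12 to 0.14, and widest for P2ry12, from -0.41 to 0.24. A change of P2ry12 of up to about that size was therefore not detectable here, whereas the Csf1r interval leaves room only for small shifts.

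In iMSN-D2RKO mice the markers did not pass either, nor did any of 14238 genes (0% called, limma, 425 at an unadjusted p under 0.05, no member among them). The differences ran from -0.22 ± 0.14 for Aif1, with a 95% interval of -0.51 to 0.06, to 0.12 ± 0.16 for Tmem119, with an interval of -0.20 to 0.44. Aif1 stood at 4.65, 7.42 and 20.6 FPKM (lowest, median and highest) after saline and at 3.55, 6.93 and 9.64 after cocaine, the highest value being that of the library with the highest total. Trem2 stood at 9.49, 15.05 and 41.4 FPKM after saline and at 11.7, 14.5 and 17.5 after cocaine. The difference of the cocaine effect between genotypes passed for no member and none of 14622 genes (0% called, limma, 245 at an unadjusted p under 0.05). It was largest for Tmem119 at 0.15 ± 0.19 and Aif1 at -0.14 ± 0.17.

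**Figure D5:**
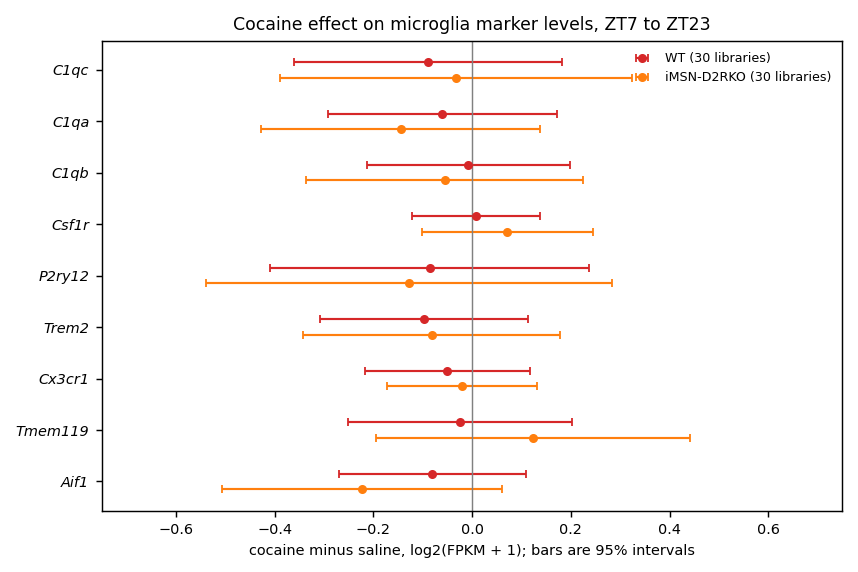
Cocaine minus saline on the log2(FPKM + 1) scale, adjusted for time point, for the 9 members in WT and iMSN-D2RKO mice (30 libraries each). Points are limma estimates, bars are 95% intervals, and every interval includes 0.

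Taken time point by time point, none of the 90 member contrasts passed (smallest adjusted p 0.17, limma), where 0.0478% of 14643 genes passed in at least 1 of the 10 contrasts. At an unadjusted p under 0.05 there were 3 member contrasts and, for at least 1 contrast, 7009 genes. P2ry12 in iMSN-D2RKO mice at ZT19 was 47.1, 16.7 and 51.8 FPKM after saline and 15.5, 16.2 and 15.4 after cocaine, a difference of -1.09. The high saline values were those of the 2 libraries set apart, and the remaining saline library, at 16.7 FPKM, lay close to the 3 cocaine libraries. In iMSN-D2RKO mice at ZT7, C1qa was 175, 72.2 and 56.4 FPKM after saline and 67.4, 49.4 and 56.3 after cocaine (-0.64), and Trem2 was 41.4, 20.8 and 16.4 FPKM against 17.5, 14.4 and 14.7 (-0.61). The saline group there holds the library with the highest total, and the cocaine group holds 1 library set apart.

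Tmem119 in WT mice at ZT19 was 6.99, 6.84 and 15.9 FPKM after saline and 6.91, 8.58 and 8.75 after cocaine. Without the libraries set apart it passed (limma, difference -0.82), but that fit compares 1 saline with 1 cocaine library, each assumed to vary like the other groups. The cocaine library left is WT ZT19 cocaine replicate 2. Its P2ry12 (36.1 FPKM) and its Tmem119 (8.58 FPKM) both lay within the range of the 13 libraries set apart. Over its 12 alternatives the adjusted p of this contrast ran from 0.0171 to 1. The number of member contrasts that passed was also raised by leaving out a single library. Without iMSN-D2RKO ZT19 saline replicate 2 P2ry12 passed, but the saline libraries left there were the 2 set apart, and no cocaine library there was set apart. Without iMSN-D2RKO ZT7 saline replicate 3 Trem2 and C1qa passed, with the library of the highest total still in the saline group. The share of all genes passing in these fits was not kept, so these calls cannot be read as particular to the members.

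The next comparison was between genotypes. Under saline, with ZT3 included (36 libraries), 0.189% of 14287 genes passed and none of the members did (limma). Aif1 had the smallest unadjusted p among the members (0.0327, limma), with a difference (iMSN-D2RKO minus WT) of 0.26 ± 0.11, a 95% interval of 0.02 to 0.49 and an adjusted p of 0.47. Without iMSN-D2RKO ZT7 saline replicate 1, at 20.6 FPKM, the Aif1 difference was 0.19 ± 0.10 (unadjusted p = 0.0644, limma), and no member was then under 0.05. C1qc differed by -0.16 ± 0.13, Tmem119 by -0.12 ± 0.13, Cx3cr1 by 0.10 ± 0.08 and P2ry12 by 0.02 ± 0.15. Under cocaine (30 libraries) 0.0487% of 14382 genes passed and no member did, the largest differences being those of Cx3cr1 (0.13 ± 0.08) and Aif1 (0.13 ± 0.10).

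Among the other microglia genes, Irf8, a transcription factor of microglia and other myeloid cells with a mean of 2.71 FPKM, was higher in iMSN-D2RKO mice under saline by 0.31 ± 0.07 (adjusted p = 0.047, limma), the only gene of the 23 tested that passed. This lay close to the threshold, and the alternative settings were not examined for Irf8. In the libraries set apart Irf8 differed by -0.34 ± 0.24, lower in 9 of the 10 groups. Under cocaine it differed by 0.17 ± 0.09 (adjusted p = 0.9996, limma), and the difference of the cocaine effect between genotypes did not pass for it (-0.14 ± 0.12). Penk, an enkephalin precursor of iMSNs, was higher by 0.76 ± 0.15 under saline and by 0.69 ± 0.13 under cocaine (adjusted p = 0.0165 and 0.0224).

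The second question of the design was daily rhythm. With JTK_CYCLE, a rank test for rhythms with periods of 20 or 24 h, in each of the 4 series of 18 libraries, no member reached a p under 0.01. The share of all genes that did was 9.81% in WT saline, 7.61% in WT cocaine, 2.58% in iMSN-D2RKO saline and 1.1% in iMSN-D2RKO cocaine. Under a p of 0.05, C1qc and Tmem119 (each p = 0.0216, exact rank distribution, corrected for the periods and phases tried, peak at ZT5) would count in WT cocaine, and Trem2 (p = 0.0359, exact rank distribution, peak at ZT5) in iMSN-D2RKO saline. At that threshold 19.5% of all genes passed in WT cocaine and 11.3% in iMSN-D2RKO saline, and 23.7% and 4.16% in WT saline and iMSN-D2RKO cocaine, where no member did. Dixon's test had dropped 1 replicate for C1qc (58.6 FPKM at ZT19) and 1 for Tmem119 (13.05 FPKM at ZT11), and none for Trem2. The C1qc value dropped was that of the only library of its group not set apart. The 2 values kept there, 38.3 and 38.0 FPKM, were those of libraries set apart. The smallest member p by JTK_CYCLE in WT saline was 0.0981, for Tmem119 with a peak at ZT7 and 1 replicate dropped (15.9 FPKM at ZT19). That replicate was likewise the only one of its group not set apart. The smallest member p by JTK_CYCLE in iMSN-D2RKO cocaine was 0.26, for Trem2.

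Over all 66 libraries together, a 24 h cosine fit passed for 7 of the 9 members, where 51.2% of 14643 genes passed (limma, adjusted p under 0.05). Trem2 peaked at ZT5.2 with an amplitude of 0.24 on the log2 scale (adjusted p = 0.00105), Csf1r at ZT7.2 with 0.15 (0.00242), C1qc at ZT6.5 with 0.25 (0.00818), C1qb at ZT5.7 with 0.20 (0.00967), Tmem119 at ZT7.8 with 0.20 (0.0208) and C1qa at ZT4.1 with 0.18 (0.0356). P2ry12 peaked at ZT20.8 with 0.25 (0.0342), in the dark phase, whereas the other 6 peaked in the light phase. Cx3cr1 and Aif1 did not pass (adjusted p = 0.12 and 0.14). The median amplitude was 0.20 for the members and 0.13 for all genes.

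The dark phase, in which P2ry12 had its fitted peak and the other 6 their fitted troughs, also held most of the libraries set apart, with 6 at ZT19 and 4 at ZT23. Without the 13 libraries no member passed, while 10.6% of 14438 genes did. At an unadjusted p under 0.05 there were 6 members and 29.4% of all genes. The amplitude of C1qa was then 0.19, close to its value over all libraries, that of C1qb was 0.15 and that of Aif1 was 0.19 against 0.14, with adjusted p of 0.11, 0.13 and 0.0837 (limma). P2ry12 at ZT19 had a median of 36.7 FPKM over 12 libraries and of 16.4 over the 6 not set apart, and its fitted peak moved from ZT20.8 to ZT4.2 with an amplitude of 0.07. Tmem119 dropped to an amplitude of 0.05 (adjusted p = 0.67). C1qc (0.17, peak ZT3.5, adjusted p = 0.0509) and Trem2 (0.17, peak ZT3.5, adjusted p = 0.0654) came closest to the threshold by limma. With the library score as a covariate Trem2 alone of the members passed (limma, amplitude 0.16, peak ZT3.1, adjusted p = 0.0193), where 1828 of 14643 genes passed. This call is therefore not particular to Trem2. Over the 12 alternatives the adjusted p ran from 0.000438 to 0.0654 for Trem2, from 0.00205 to 0.23 for C1qc, from 0.0111 to 0.92 for Tmem119 and from 0.00372 to 0.65 for P2ry12.

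Trem2 medians over the libraries not set apart were 17.3 FPKM at ZT3, 17.5 at ZT7, 15.03 at ZT11, 14.3 at ZT15, 16.1 at ZT19 and 16.7 at ZT23. These medians differed by less than the range within most time points, such as 14.7 to 19.8 FPKM at ZT3. The interactions of the 24 h rhythm with treatment in WT and with genotype under saline passed for no member and for none of 14392 and 14287 genes (0% called in both, limma, with 198 and 355 genes and no member at an unadjusted p under 0.05).

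Genes that work with the markers were described by the same fits. The ligands were abundant, Cx3cl1, the fractalkine of neurons that binds CX3CR1, at 317 FPKM, and Il34, a neuronal ligand of CSF1R, at 40.3, against 4.54 for Csf1, the other ligand. In the 24 h fit over all libraries 5 of 13 ligands and partners passed, among them Il34 (peak ZT7.6, amplitude 0.20) and Tyrobp (peak ZT7.0, amplitude 0.33), as did 10 of 24 other microglia genes, led by Laptm5 (peak ZT7.3, 0.29) and Siglech (peak ZT6.8, 0.21). Of the complement genes 3 of 11 passed, of the activation genes 5 of 13 and of the border macrophage genes 3 of 4. Each of these shares except the last lay under the 51.2% of all genes. None of these lists had a gene that passed for cocaine in either genotype or at any time point.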

How the data were processed

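RNA of NAcc punches was sequenced as stranded, poly(A)-selected, single-end libraries. The authors aligned reads to mm10 with TopHat and Bowtie2, assembled and quantified genes with Cufflinks, and deposited gene FPKM values normalized with Cuffnorm; the labels also name CASAVA 1.8.2. The 6 ZT3 libraries are listed in 2 columns with identical values and were counted once. Libraries were grouped by genotype, treatment and time as labelled.

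FPKM were tested as log2(FPKM + 1) with limma 3.58.1 (trended variance, R 4.3.3) for genes at 1 FPKM or more in at least 1 library of the comparison, with time point as a factor for level effects, and p-values adjusted by Benjamini-Hochberg over all genes. Fold changes of low genes are understated by the pseudocount of 1. JTK_CYCLE was rewritten, with up to 1 replicate per time point dropped by Dixon's test. Its tie order was settled by comparison with the p-values of the study's source table for WT saline. Both tests were checked on simulated data.

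Libraries were set apart by the widest gap in their score on the first within-group axis over genes with a mean above 5 FPKM. Same-numbered saline and cocaine libraries did not deviate together in a regular way, so replicate numbers were not used as pairs. Their correlation ran from -0.74 to 0.58 with a median of -0.10, and was over 0.1 in 6 of 30 pairs. The text names all members, list genes that passed (at most 3 a comparison) or otherwise the 2 most abundant, and the 12 genes closest to the members. Gpr34, P2ry13, Med12l, Selplg, Fcrls, Sall1, Mrc1, Lyve1, Ccr2, Cst7, Clec7a, Il1b, Tnf, Csf1, Cx3cl1 and Snap25 were picked after their values were seen or for their role. Hpgds, Cd33 and Cd53 were named for their GC content, also after their values were seen. Members and lists were chosen with earlier results of these data known. Amino acid sequences and a genome sequence were not used here. Promoter windows of C1qa, Csf1r and Tmem119 were not searched, so the motif counts do not cover these members.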

Additional observations from a re-analysis of the deposited data

How the results depend on the processing

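Of the 13 comparisons, 9 gave the same number of members past the threshold under every alternative run. The 24 h fit, with 7 members, gave 6 with rescaled libraries, 7 with the replicate block, 1 with the library score as covariate, 0 without the libraries set apart, and 1 to 7 on leaving out a replicate number (5 to 7 on leaving out single libraries). Over all genes, 1828 of 14643 passed this fit with the score as covariate. On leaving out replicate 1, 2 or 3, 1728 of 14405, 7622 of 14554 and 1951 of 14400 genes passed. C1qa was lost on leaving out any of 5 libraries and P2ry12 any of 9. P2ry12 turned its phase with the library score as covariate (amplitude 0.0902) and without the libraries set apart (0.0678), as did Tmem119 with the score as covariate (0.0191); the cause was not tested. The contrasts by time point gave 1 member without the libraries set apart and 0 to 2 on leaving out single libraries. The JTK counts became 2 in WT cocaine and 1 in iMSN-D2RKO saline at a p under 0.05 (19.5% and 11.3% of all genes), and in iMSN-D2RKO saline 0 to 1 on leaving out a replicate number and 1 (Csf1r) without ZT7 saline replicate 1, an alternative chosen after seeing the data. C1qc in WT cocaine turned its phase with the library score removed (p = 0.166 by the exact rank distribution). The replicate block changed no call of a member. Over all genes, calls for genotype under saline were 27 and under the other settings 7 to 136; for the contrasts by time point they were 7 and 1 to 1527. The 3 libraries per group and the unknown read depth limit what could be detected.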

Other observations

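The genes whose within-group deviations followed the 9 members most closely were of no microglial kind when all 66 libraries were used. The 12 closest, by Pearson's r with the mean standardised deviation of the members, ran from Ap1s1 (r = 0.89) through Gpank1, Nit2, Wdr54, Mien1, 2410015M20Rik, Mrpl16, Snrpd2, Arpc1a, Timm13 and Bloc1s1 to B9d2 (r = 0.87), and none of them was in the microglia lists. Over the 53 libraries not set apart, a choice made after seeing the data, the 12 closest included Ctss (r = 0.85), a lysosomal protease of microglia, Rgs10 (0.82), Hcls1 (0.82) and Selplg (0.81). Of those 12, 2, Ap1s1 and B9d2, were also among the 12 over all libraries. These are descriptions over libraries that share a table and its normalization, with no test.

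The lowest summed level of the 9 members, 161 FPKM, was found in WT ZT15 cocaine replicate 3, against a median of 275 over the 66 libraries. That library also held the lowest sum of the 23 other microglia genes (198 against 325) and of the endothelial genes (143 against 219). It held the highest sum of the 2 border macrophage genes with a mean of 1 FPKM or more (8.36 against 3.30). Its C1qa was 21.9 FPKM, its C1qb 32.4, its P2ry12 7.51 and its Trem2 7.94, each the lowest of all libraries for that gene. The members did not all fall there. Its Csf1r at 32.2 FPKM and Cx3cr1 at 15.1 lay above their means of 29.9 and 14.97, while the other members lay below theirs.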
